A study of Mus musculus with 3 samples.

Results

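The cells described here are mouse T cells of the authors' Cd8 class that carry hashtag number 4, set against those that carry hashtag number 3. They were chosen by the authors' deposited annotation, which gives each cell a Cd8 or Cd4 identity, a class and a hashtag number; cells with both the identity Cd8 and the class Cd8 were taken. This gave 593 cells of hashtag 4 and 867 of hashtag 3, which are 1460 of the 5564 cells in the table. No measured level entered the choice beyond what the authors used for their classes. The class Tdp, which is left out here, holds Cd8-identity cells that all had UMIs of both Cd4 and Cd8a, 41 in hashtag 3 and 117 in hashtag 4.

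The study sorted T cells from B16F10 tumors, a transplantable melanoma grown under the skin of mice. T cells of open repertoire, CD4+ of the CD45.1 type or CD8+ of the CD45.2 type, were given into a tail vein 1 day after tumor inoculation. CD45.1 and CD45.2 are congenic forms of a surface protein that tell donor cells apart. Tumors of 10 mice were taken out on day 11 and pooled. CD4+, CD4+CD8+, CD8+ and CD8+CD4+ cells were sorted, hashtagged separately and mixed into a single 5′ droplet library, and all are labelled untreated; CD45.1 marks the first and second of these populations and CD45.2 the others. The mouse strains are not given in the sources used here. The labels give these populations in more than 1 order and tie none of them to a hashtag number, so the groups are called here only by their number. Every cell of both groups passed through the same droplet run, no group has a replicate, and the mouse each cell came from is not given. No difference below was tested; each interval is exact, at 95%, and covers counting error only.

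CD8 T cells read peptides on MHC class I through a receptor made of an alpha and a beta chain, with the CD8 co-receptor, a pair of chains encoded by Cd8a and Cd8b1, holding the kinase Lck beside it. A clone that meets its antigen divides and its daughters keep the same receptor, so the V genes used by a population record which clones are large in it. In tumors such cells range from Ccr7-expressing cells close to the naive and memory state, through dividing cells, to cells with granzymes and inhibitory receptors such as PD-1 (Pdcd1).

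Hashtag 4 held 2919165 UMIs (unique molecular identifiers, 1 for each captured transcript) and hashtag 3 held 4603921, and the median cell had 3982 and 4430 UMIs. Of the 867 and 593 cells, 96.0% (94.4 to 97.2%) and 89.7% (87.0 to 92.0%) had a UMI of Cd3e, a chain of the T cell receptor complex, and 95.7 and 85.3% had one of a Cd3 gene together with Cd8a or Cd8b1. Cells without these transcripts were thus more frequent in hashtag 4. Levels are given in CPM, the UMIs of a gene summed over the cells of a group and scaled to the group's total, without the 108 T cell receptor and immunoglobulin genes, and log2 ratios carry a pseudocount of 5 CPM. In such sums, fewer cells with a transcript and less of it per cell cannot be told apart, so shares of cells are given too. A gene is called past the fold when its ratio is at least 1.5 and the interval leaves out 1. Of 6874 genes with at least 100 UMIs, 325 were higher past the fold in hashtag 4 (4.73%) and 59 were lower (0.858%), which is a split of 84.6% higher. TMM scaling of the same sums moved the split to 72.3% higher. Among the 830 and 506 cells with a UMI of a Cd3 gene and of Cd8a or Cd8b1, here called T-marked cells, 100 of 6453 genes were higher (1.55%) and 77 lower (1.19%). Of the 325 genes that were higher over all cells, 78 were also called in the T-marked cells, which is 24% of the first list and 78% of the second; of the 59 lower genes 42 were, 71.2% and 54.6%. For members of lists, a minimum of 20 UMIs was used, at which 7.57% of 10101 genes were higher and 1.31% lower; in T-marked cells the shares were 3.48% and 1.56%.

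The genes with the largest ratios towards hashtag 4 are known from macrophages and dendritic cells. Of 17 macrophage or monocyte markers, 15 were higher, with a median log2 ratio of 1.89, beside 0.034 over all genes with 20 UMIs, and none was lower. Of all genes with 20 UMIs, 7.57% were higher. Lyz2, which encodes lysozyme, stood at 1373, 621, 177 and 925 CPM in hashtags 1 to 4. Hashtag 3 was the lowest of the 4 and hashtag 1 the highest, and the 4 intervals did not overlap. The ratio of hashtag 4 to 3 was 5.22 (4.83 to 5.65). Ccl6, a chemokine of myeloid cells, was at 516, 215, 56.9 and 379 CPM in the same order. Dab2, an endocytic adaptor, had the highest log2 ratio, 2.93, among genes of at least 20 CPM found in at least 5% of hashtag 4 cells, with 213 UMIs in 34 cells against 24 UMIs in 14 cells. The 15 highest of these genes also held Lgmn, a lysosomal protease, the Fc receptor genes Fcgr2b, Fcgr3 and Fcer1g, and Aif1, Grn and Ms4a4a. C1qa, a chain of complement C1q, was held by few cells: 381 UMIs in 2.87% of hashtag 4 cells and 5 UMIs in 0.577% of hashtag 3 cells. The same direction of summed levels was seen between the numbers in the authors' Cd4 class, on few cells. There 10 of 12 measured macrophage markers were higher in hashtag 4 and the Lyz2 log2 ratio was 4.47, beside a background of 2.3% of genes higher. Lyz2 was found in 4 of 202 hashtag 3 cells (1.98%, 0.542 to 4.99%) and 19 of 383 hashtag 4 cells (4.96%, 3.01 to 7.64%). These intervals overlapped, and C1qa was found in 4 cells of each (1.98 and 1.04%).

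MHC class II genes, which present peptides to CD4 T cells and are switched on by the factor Ciita, differed in the same direction. Of 9 measured members 7 were higher, beside 7.57% of genes, none was lower, and the median log2 ratio was 1.08. H2-Aa, the alpha chain of I-A, was at 2106, 768, 402 and 848 CPM in hashtags 1 to 4, again lowest in hashtag 3. The ratio of hashtag 4 to 3 was 2.11 (1.98 to 2.24). The 200 bases before the starts of H2-Aa and H2-Eb1 are shown because these genes share a regulatory layout; capitals mark CCAAT or its other strand, ATTGG, the core of the Y box. The sequences are from RefSeq on GRCm38.p6, 5′ to 3′ on the strand of the gene, for H2-Aa at chr17:34287824-34288023 (minus strand) and for H2-Eb1 at chr17:34305667-34305866 (plus strand).
H2-Aa: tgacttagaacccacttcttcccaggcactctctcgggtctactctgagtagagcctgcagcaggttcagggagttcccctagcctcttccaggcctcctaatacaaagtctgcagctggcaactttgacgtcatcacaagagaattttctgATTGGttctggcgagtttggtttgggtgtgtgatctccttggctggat
H2-Eb1: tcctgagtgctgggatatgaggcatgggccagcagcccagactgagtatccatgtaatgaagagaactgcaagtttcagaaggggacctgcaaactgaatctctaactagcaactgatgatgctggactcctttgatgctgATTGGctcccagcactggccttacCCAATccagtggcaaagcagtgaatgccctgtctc
Of the 9 list members 6 matched the promoter table, and 5 of them held the letters within 250 bases before the start, beside 34.5% of 27025 promoters. A match of this kind describes the letters only.

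The MHC class II transcripts sat in few cells of either group, and the macrophage transcripts sat in few cells of hashtag 4. With at least 3 of 32 stricter marker genes taken as a rule chosen after the data were seen, 61 of 593 hashtag 4 cells met it (10.3%, 7.96 to 13%) and 28 of 867 hashtag 3 cells (3.23%, 2.16 to 4.63%). Hashtags 1 and 2 had 17.3% and 7.67%. These cells held 97.9% of the MHC class II UMIs of hashtag 4 and 96.2% of those of hashtag 3. The marker genes of the rule include H2-Aa, H2-Ab1 and H2-Eb1, so these shares follow in part from the rule. They were deep, with medians of 8402 and 7537 UMIs, and 34 of the 61 and 11 of the 28 also had a UMI of a Cd3 gene. Cd8b1 was found in 26 and 10. Of the 61 and the 28, 22 and 10 were T-marked, so the T-marked cells are not free of stricter myeloid cells. Without them, 61 of 6390 genes were higher (0.955%) and 59 lower (0.923%), and at a minimum of 20 UMIs 2% were higher and 1.36% lower. The loss of macrophage markers from these counts follows from the rule, which removes cells by such genes. Summed, the 17 macrophage or monocyte markers were at 4155, 3159, 2209 and 3587 CPM in hashtags 1 to 4, and no member was at 0 in any of them. In hashtag 3 the stricter myeloid cells held 15.9% of those UMIs and in hashtag 4 they held 69.2%. Of the other lists, 7 of 12 dendritic and 7 of 9 plasmacytoid dendritic markers were higher over all cells, beside 7.57% of genes. Both measured melanoma markers, Dct and Mitf, were higher too, on a summed level of 13.8, 6.63, 4.58 and 32.3 CPM in hashtags 1 to 4. Of the natural killer markers, 8 of 14 were higher, at 515 and 1338 CPM summed in hashtags 3 and 4, with 11 cells (1.27%, 0.635 to 2.26%) and 16 cells (2.70%, 1.55 to 4.35%) that had at least 2 receptor genes of that list. The list holds Tyrobp and Fcer1g, which myeloid cells also make, and the stricter myeloid cells held 63.9% of its UMIs in hashtag 4 and 37.8% in hashtag 3. Of these genes, Ncr1 had 11 and 63 UMIs. Their part in the results below was not tested except where a value without these cells is given.

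**Figure D1:**
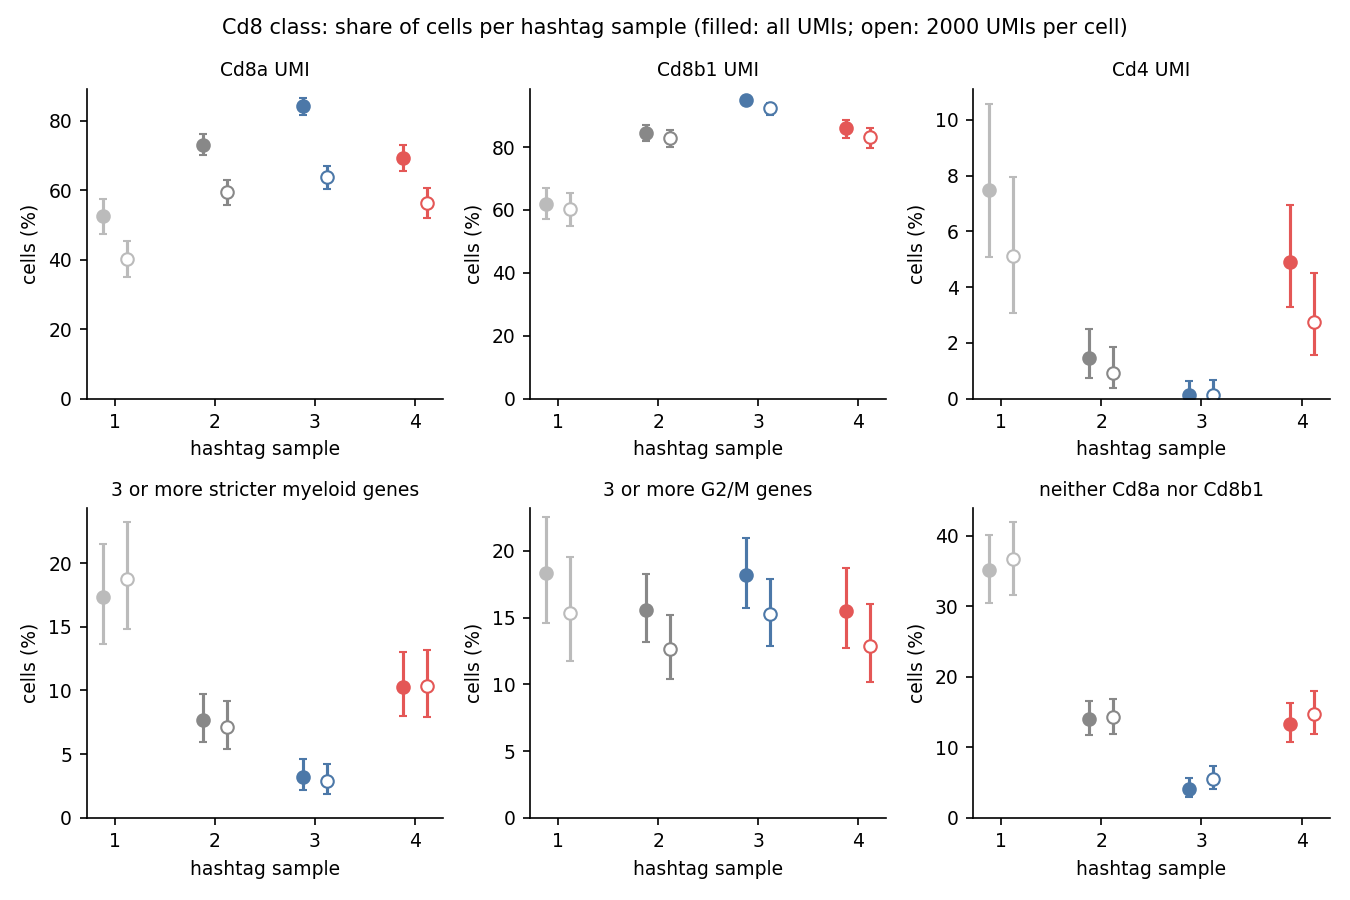
Share of Cd8 class cells (%, vertical) in hashtag samples 1 to 4 (horizontal) with a UMI of Cd8a, Cd8b1 or Cd4, with 3 or more stricter myeloid or G2 and mitosis genes, and with neither Cd8 gene; bars are exact binomial 95% intervals, filled points use all UMIs and open points 2000 UMIs per cell. Hashtag 3 has the highest share with Cd8b1 (95%) and the lowest with Cd4 (0.115%) and with stricter myeloid genes (3.23%).

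The co-receptor transcripts differed between the numbers in the share of cells that had them. Cd8b1 was found in 62.0, 84.5, 95 and 86.0% of cells in hashtags 1 to 4, and Cd8a in 52.4, 73.1, 84.2 and 69.3%. Hashtag 3 was the highest for both, and hashtags 2 and 4 overlapped in their intervals. Thinned to 2000 UMIs per cell, Cd8a was found in 59.4% (55.8 to 62.9%), 63.7% (60.3 to 67.0%) and 56.35% (52.1 to 60.6%) in hashtags 2 to 4. There the interval of hashtag 3 overlapped those of hashtags 2 and 4. Cd8b1, thinned, was found in 92.3% (90.3 to 94.0%) in hashtag 3 and 83.1% (79.6 to 86.1%) in hashtag 4, which did not overlap. For comparison, Cd8b1 was found in 22.8 and 14.1% of Cd4 class cells of hashtags 3 and 4, at median depths of 3372 and 3527 UMIs. Neither Cd8 gene was found in 36 of 867 hashtag 3 cells (4.15%, 2.92 to 5.70%) and in 79 of 593 hashtag 4 cells (13.3%, 10.7 to 16.3%). The class itself shapes these shares, since it leaves out Tdp cells, all of which had Cd8a. With the Cd8-identity Tdp cells put back, Cd8a was found in 84.9% of hashtag 3 cells and 74.4% of hashtag 4 cells. By level, Cd8a had a log2 ratio of -0.43 and Cd8b1 of -0.23, neither past the fold, and Cd8b1 was at -0.03 without the stricter myeloid cells. T-marked cells were chosen by these transcripts, so their own Cd8 levels say nothing more.

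Cd4, the co-receptor of helper cells, had 42 UMIs in 29 hashtag 4 cells (4.89%, 3.30 to 6.95%) and 1 UMI in 1 hashtag 3 cell (0.115%, 0.00292 to 0.641%). Hashtags 1 and 2 had it in 7.49 and 1.44% of cells, so hashtag 3 was the lowest of the 4. All 29 cells had a Cd3 UMI, 25 had Cd8b1, 3 had Cd8a, and 1 met the stricter myeloid rule. The authors' class shapes this count, because a cell with UMIs of both Cd4 and Cd8a mostly stands in the Tdp class. With the Cd8-identity Tdp cells put back, Cd4 was found in 38 of 862 cells that had Cd8b1 in hashtag 3 (4.41%, 3.14 to 6.00%) and in 135 of 620 in hashtag 4 (21.8%, 18.6 to 25.2%). Hashtags 1 and 2 had 18.8 and 12.2%. In the class alone the counts were 0 of 824, where 3 counts would be 0.364% and the exact upper limit is 0.447%, and 25 of 510 (4.90%). Such a limit is on cells with a UMI, not on cells that express the gene. Of the 9 measured genes of the CD4 lineage and helper list, 2 were higher, Cd4 and Maf, beside 7.57% of genes. Maf, a factor of helper cells and macrophages, had 49 UMIs in hashtag 3 and 177 in hashtag 4. Its log2 ratio was 2.07, and 0.91 without the stricter myeloid cells. Zbtb7b, the factor that fixes the CD4 lineage, was at 28.0, 13, 11.1 and 15.8 CPM and its ratio of 1.42 had an interval (0.934 to 2.16) that took in 1. Runx3, which fixes the CD8 lineage, was at 136, 176, 197 and 172 CPM, with a log2 ratio of -0.19 that did not pass the fold.

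**Figure D2:**
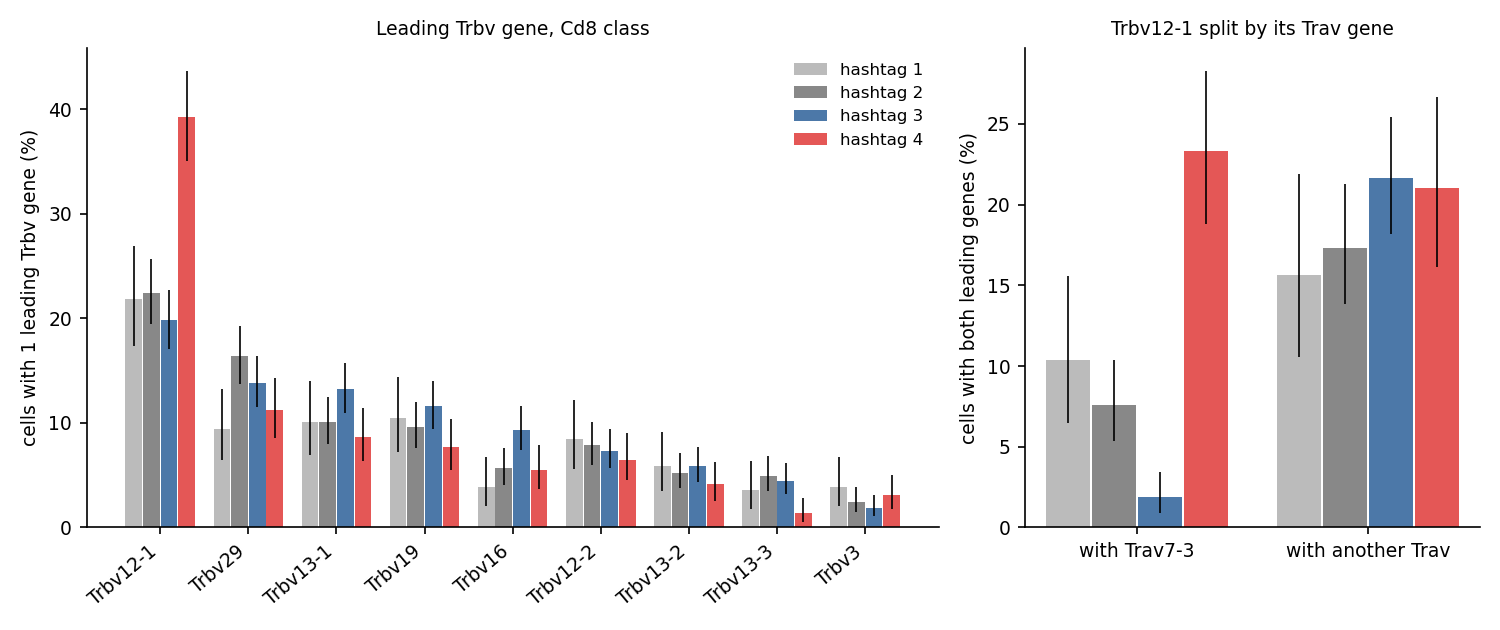
Left, share of cells (%, vertical) led by each of the 9 most frequent Trbv genes in hashtags 1 to 4, among Cd8 class cells with 1 leading Trbv gene; right, share of Trbv12-1 cells with Trav7-3 and with another Trav gene among cells with a leading gene of both chains, the second with that pair left out of its denominator. Bars are exact binomial 95% intervals; hashtag 4 stands at 39.3% for Trbv12-1, and its Trbv12-1 cells without Trav7-3 (21.1%) lie beside those of hashtag 3 (21.6%).

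The use of T cell receptor V genes differed between hashtags 3 and 4. A cell was given the Trbv gene, the V gene of the beta chain, that had most of its Trbv UMIs, where 1 gene led; 803 hashtag 3 cells and 509 hashtag 4 cells had one. Trbv12-1 led in 67 of 307 cells in hashtag 1 (21.8%), 163 of 727 in hashtag 2 (22.4%), 159 of 803 in hashtag 3 (19.8%, 17.1 to 22.7%) and 200 of 509 in hashtag 4 (39.3%, 35.0 to 43.7%). Hashtag 4 lay above the intervals of the other 3. In T-marked cells the shares were 29% (23.2 to 35.3%), 23.96% (20.8 to 27.4%), 20.1% (17.4 to 23.1%) and 41.3% (36.8 to 45.8%), where hashtag 1 lay above hashtag 3 and closest to hashtag 4. In the Cd4 class Trbv12-1 led in 5.11% (2.37 to 9.48%) and 3.12% (1.51 to 5.67%) of cells of hashtags 3 and 4. Shares over all Trbv genes sum to a whole, so the others are given among cells led by a gene other than Trbv12-1, 644 in hashtag 3 and 309 in hashtag 4. There Trbv29 led in 17.2 and 18.4%, Trbv13-1 in 16.5 and 14.2%, Trbv19 in 14.4 and 12.6%, and Trbv12-2, a near copy of Trbv12-1 that could share reads with it, in 9.16 and 10.7%. The intervals of hashtags 3 and 4 overlapped for each of these 4 genes. Over all cells with a leading gene, Trbv13-3 led in 36 of 803 in hashtag 3 (4.48%, 3.16 to 6.15%). In hashtag 4 it led in 7 of 509 (1.38%, 0.555 to 2.81%), and the intervals did not overlap. These totals include the Trbv12-1 cells, which lower the shares of other genes more in hashtag 4. Among cells led by a gene other than Trbv12-1 the counts were 36 of 644 and 7 of 309. Intervals on that base were not computed for Trbv13-3, so its difference depends on the base used.

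The difference in Trbv12-1 between hashtags 3 and 4 lay with a single alpha chain V gene. Of Trbv12-1 cells with a leading Trav gene, 20 of 47 in hashtag 1 used Trav7-3 (42.6%, 28.3 to 57.8%), 35 of 109 in hashtag 2 (32.1%, 23.5 to 41.7%), 10 of 123 in hashtag 3 (8.13%, 3.97 to 14.4%) and 75 of 127 in hashtag 4 (59.1%, 50.0 to 67.7%). Trav7-3 was the most frequent partner in hashtags 1, 2 and 4, hashtag 3 lay below the other 3, and hashtags 1 and 4 overlapped. In hashtag 3 the most frequent partner was Trav17, in 28 of the 123 (22.8%), which was found in 10 of the 127 in hashtag 4 (7.87%). These totals include the 10 and 75 Trav7-3 cells, so more Trav7-3 by itself lowers the Trav17 share in hashtag 4. Trav17 shares with the Trav7-3 cells left out were not computed. Over all cells with both leading genes, the Trav7-3 and Trbv12-1 pair made up 20 of 193 cells in hashtag 1 (10.4%), 35 of 462 in hashtag 2 (7.58%), 10 of 532 in hashtag 3 (1.88%, 0.905 to 3.43%) and 75 of 322 in hashtag 4 (23.3%, 18.8 to 28.3%). With this pair left out, Trbv12-1 led in 113 of 522 hashtag 3 cells (21.6%, 18.2 to 25.4%) and 52 of 247 hashtag 4 cells (21.1%, 16.1 to 26.7%). Trav7-3 was rare with other beta chains, in 4 of 409 and 5 of 195 cells (0.978 and 2.56%). The most frequent pair in hashtag 3 was Trav16n with Trbv13-1, in 40 of 532 cells (7.52%), which was the second most frequent in hashtag 4 with 19 of 322 (5.90%). The Cd8-identity Tdp cells of the same numbers held the Trav7-3 pair in 4 of 27 cells of hashtag 3 (14.8%, 4.19 to 33.7%) and 47 of 81 of hashtag 4 (58.0%, 46.5 to 68.9%). V genes alone do not identify a clone, and Trav7-3 has near copies in the mouse genome among which reads can be split. Cells of 1 clone are not independent draws, so intervals over cells understate the spread between mice.

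The Trbv12-1 cells of hashtag 4 differed from its other cells in depth and in the share with Gzmb. Their median was 3438 UMIs against 4435, so shares are given over all UMIs and thinned to 2000 UMIs per cell. Of the 200, 10.5% (6.62 to 15.6%) were cycling, meaning that they had UMIs of at least 3 genes of the G2 and mitosis list, against 19.1% (14.9 to 23.9%) of the 309 cells led by other Trbv genes. Thinned, the shares were 8.89 and 15.6%, with intervals that overlapped. Gzmb, which encodes granzyme B, was found in 21.5% (16.0 to 27.8%) of the former and 39.2% (33.7 to 44.8%) of the latter, and thinned in 14.4% (9.66 to 20.4%) and 28.2% (23.2 to 33.7%), which did not overlap. Gzmk was found in 42.5 and 39.2%, with overlapping intervals. Pdcd1 was found in 45.5 and 47.9%, and thinned in 33.3 and 32.2%, also with overlapping intervals. The 75 cells of the Trav7-3 pair had a median of 3232 UMIs. Gzmb was found in 10 of them (13.3%, 6.58 to 23.2%), 5 were cycling (6.67%, 2.20 to 14.9%), and Gzmk was found in 38 (50.7%, 38.9 to 62.4%). Cd8b1 was found in all 75 and Cd4 in 9 (12%). In hashtag 3 the depth of Trbv12-1 and other cells was close, 4425 and 4434 UMIs; 15.1% of its Trbv12-1 cells and 19.7% of its other cells were cycling, and Gzmb was found in 33.3 and 41.3% (thinned, 22.8 and 29.4%), the same direction as in hashtag 4 with overlapping intervals. The cells of other Trbv genes in hashtag 4 had Cd8b1 in 89.6% (85.7 to 92.8%) against 98.5% (95.7 to 99.7%) of its Trbv12-1 cells; the part of this difference in the shares above was not tested. Restricted to cells led by another Trbv gene than Trbv12-1, 99 of 5649 genes were higher in hashtag 4 and 55 were lower. Over all cells, 325 of 6874 genes were higher (4.73%) and 59 lower (0.858%). The restriction also leaves out cells with no leading Trbv gene, which 92.6% of hashtag 3 cells and 85.8% of hashtag 4 cells had. The parts of these 2 exclusions in the counts were not told apart.

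Genes of G2 and mitosis lay below hashtag 3 throughout the list. All 21 measured members had a log2 ratio under 0, with a median of -0.42; 2 were lower past the fold, Cenpe and Ccna2, beside a background of 1.31%. Among T-marked cells the median was -0.58 and 12 of 21 were lower, beside 1.56%: Mki67, Top2a, Ccna2, Ccnb1, Ccnb2, Birc5, Ube2c, Cdc20, Nusap1, Cenpf, Cenpe and Plk1. Without the stricter myeloid cells the median was -0.31 and Cenpe alone was lower past the fold. Cenpe, a kinetochore motor that aligns chromosomes, was at 43.7, 36.2, 53.8 and 32.3 CPM in hashtags 1 to 4. Hashtags 3 and 4 did not overlap in their intervals, and hashtag 2 lay near hashtag 4. Cenpe was 1.67-fold lower in hashtag 4 than in 3 (1.31 to 2.14). Ube2c, which hands ubiquitin to the anaphase-promoting complex, was at 269, 187, 248 and 170 CPM, so hashtags 1 and 3 were high and 2 and 4 low. Its log2 ratio of hashtag 4 to 3 was -0.53 over all cells and -0.72 in T-marked cells, where it was 1.66-fold lower (1.48 to 1.88). Top2a, the topoisomerase that untangles sister chromosomes, was at 219, 195, 257 and 182 CPM. In the Cd4 class 4 of 20 members were lower in hashtag 4 and the median was -0.26, beside a background of 2.14%.

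The 200 bases before the start of Cenpe, Ube2c and Top2a are shown because many genes of this program are known to carry 1 or both of 2 elements there. Capitals mark CCAAT or ATTGG, the box bound by NF-Y, and TTTGAA or TTCAAA, the CHR element bound by the DREAM and B-MYB complexes; neighbouring matches can overlap. Cenpe holds no TTTGAA or TTCAAA in this window. RefSeq on GRCm38.p6 gives them at chr3:135212363-135212562 (Cenpe, plus strand), chr2:164769729-164769928 (Ube2c, plus strand) and chr11:99024190-99024389 (Top2a, minus strand).
Cenpe: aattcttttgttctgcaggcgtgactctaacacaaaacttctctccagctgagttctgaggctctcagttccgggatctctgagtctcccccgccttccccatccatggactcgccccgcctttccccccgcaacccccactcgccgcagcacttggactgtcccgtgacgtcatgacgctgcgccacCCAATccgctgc
Ube2c: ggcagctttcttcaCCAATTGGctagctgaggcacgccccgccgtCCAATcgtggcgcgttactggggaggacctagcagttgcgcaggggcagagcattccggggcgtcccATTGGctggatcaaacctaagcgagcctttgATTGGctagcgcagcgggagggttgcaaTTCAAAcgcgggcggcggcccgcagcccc
Top2a: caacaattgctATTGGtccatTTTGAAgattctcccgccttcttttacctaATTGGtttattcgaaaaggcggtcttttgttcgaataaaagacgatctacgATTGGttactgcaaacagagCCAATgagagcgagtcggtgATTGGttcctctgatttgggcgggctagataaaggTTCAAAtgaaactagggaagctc
Of the 21 members 18 matched the promoter table. Within 250 bases before the start, 16 of the 18 held CCAAT on either strand (88.9%, beside 34.5% of all 27025 promoters) and 8 held TTTGAA (44.4%, beside 16.3%).

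**Figure D3:**
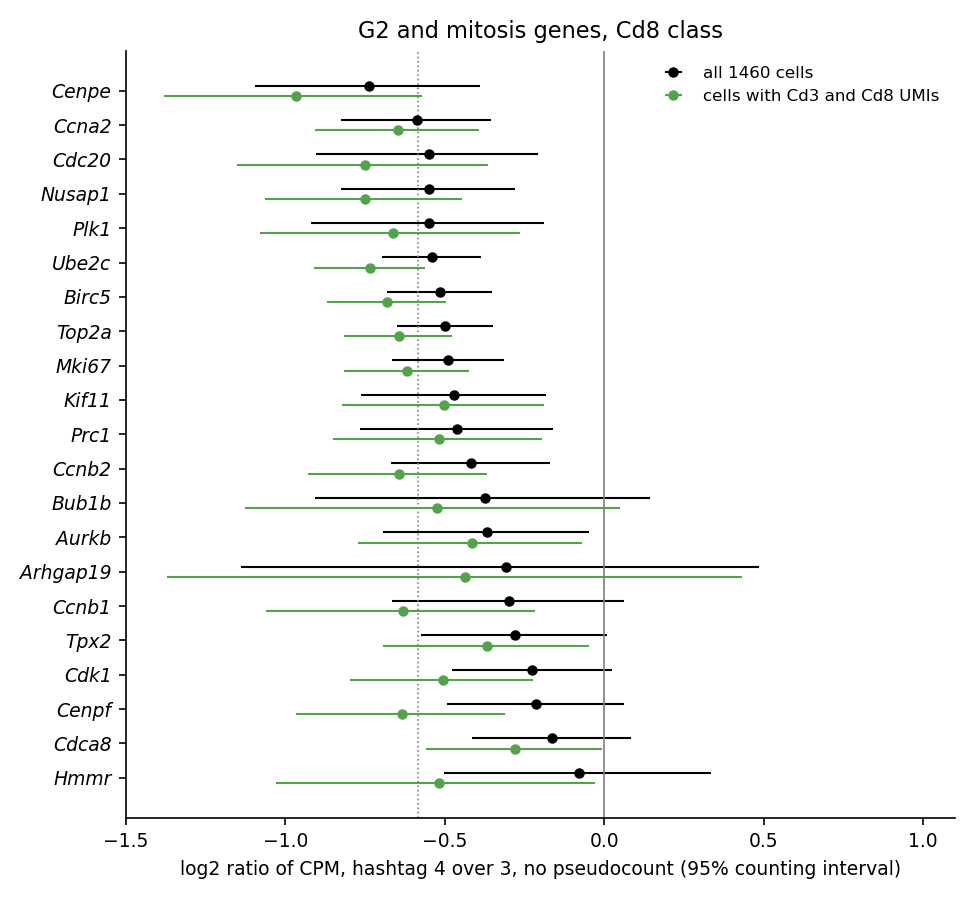
Log2 ratio of CPM (horizontal, no pseudocount) of hashtag 4 over 3 for the 21 measured genes of G2 and mitosis (vertical), for all Cd8 class cells (black) and T-marked cells (green), with exact 95% counting intervals; the dotted line is 1.5-fold lower. All black points lie left of 0, and the green point of each of the 21 genes lies further left than its black one.

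The share of cycling cells showed a smaller difference than the summed levels. It was 18.3, 15.6, 18.2 and 15.5% in hashtags 1 to 4, and the intervals of hashtag 3 (15.7 to 21.0%) and hashtag 4 (12.7 to 18.7%) overlapped. Thinned to 2000 UMIs per cell, which left out 35 hashtag 3 cells and 50 hashtag 4 cells, the shares were 15.3 and 12.9%. Cycling cells were deeper in hashtag 3, with medians of 8190 and 6980 UMIs. Genes of DNA replication in S phase had a median log2 ratio of -0.20 and 0 of 20 were past the fold, beside 7.57% of genes higher and 1.31% lower. Among the 15 genes with the lowest ratios by the same limits, applied to hashtag 3, several are known from dividing cells. Kifc1, a minus-end spindle motor, was 2.23-fold lower (1.5 to 3.39), and Cdkn3, a cyclin-dependent kinase phosphatase, 2.05-fold lower (1.47 to 2.92). The histone gene Hist1h2ae was at 284, 326, 451 and 264 CPM, highest in hashtag 3, and 1.71-fold lower in hashtag 4 than in 3 (1.57 to 1.86). With cycling cells left out its log2 ratio was 0.10.

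Of 14 measured genes of the naive and memory state, Id3 alone was lower past the fold and Ccr7 alone was higher. Over all genes with 20 UMIs, 1.31% were lower and 7.57% higher, so the count of higher members is near the background. Id3, an inhibitor of E proteins kept by naive and memory cells, was at 17.6, 32.7, 46.6 and 24.4 CPM in hashtags 1 to 4, highest in hashtag 3, and was found in 14.2% of hashtag 3 cells and 8.43% of hashtag 4 cells. It was 1.91-fold lower in hashtag 4 (1.46 to 2.54), and its log2 ratio was -0.81, -0.70 in T-marked cells and -0.74 in cells that were neither cycling nor carried myeloid or NK markers. In this last set 1.95% of genes with 20 UMIs were higher and 1.33% lower. In the Cd4 class the log2 ratio of Id3 was -1.62, on few cells. It was found there in 10 of 202 hashtag 3 cells (4.95%, 2.40 to 8.92%) and 14 of 383 hashtag 4 cells (3.66%, 2.01 to 6.06%). These intervals overlapped. Dapl1, a gene known from naive and memory CD8 cells, was at 105, 146, 174 and 118 CPM, a log2 ratio of -0.54 that did not pass the fold. Tcf7, the factor of stem-like cells, was at 182 and 178 CPM in hashtags 3 and 4 and Il7r at 301 and 315 CPM, with ratios of 0.976 (0.873 to 1.09) and 1.05 (0.961 to 1.14).

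Ccr7, the receptor that guides cells to lymph nodes and is also made by migrating dendritic cells, went in opposite ways by sum and by share. Its sum was 53.6 CPM in hashtag 3 and 81.4 CPM in hashtag 4, a log2 ratio of 0.56, while it was found in 14.1% (11.8 to 16.6%) and 9.44% (7.21 to 12.1%) of cells. The intervals of these shares overlapped, and a single cell held over 20% of the Ccr7 UMIs of hashtag 4. Without the stricter myeloid cells the log2 ratio was -0.54, past the fold in the other direction.

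Sums of cytokine and chemokine genes turned on single cells. Ifng, which encodes interferon gamma, was at 54.6, 137, 56.0 and 167 CPM in hashtags 1 to 4, and its ratio of 2.98 (2.55 to 3.47) in hashtag 4 over 3 was past the fold. One hashtag 4 cell held 365 of the 485 UMIs, and the next cell held 5. Without the top cell of each group the levels were 45.3 CPM in hashtag 3 and 41.2 in hashtag 4, a log2 ratio of -0.12. Ifng was found in 14.6% of hashtag 3 cells and 16.2% of hashtag 4 cells. The same cell held 145 UMIs of Xcl1, 136 of Ccl4, 117 of Ccl3, 67 of Ccl1 and 23 of Il2, with 5 UMIs of Cd8a and 5 of Cd3e among 6190 in all. Xcl1, which draws cross-presenting dendritic cells, was past the fold at a log2 ratio of 0.83, and of 0.36 once the top cells were left out. Ccl3 was at 49.0 and 57.0 CPM with these cells and at 36.2 and 16.8 CPM without them.

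**Figure D4:**
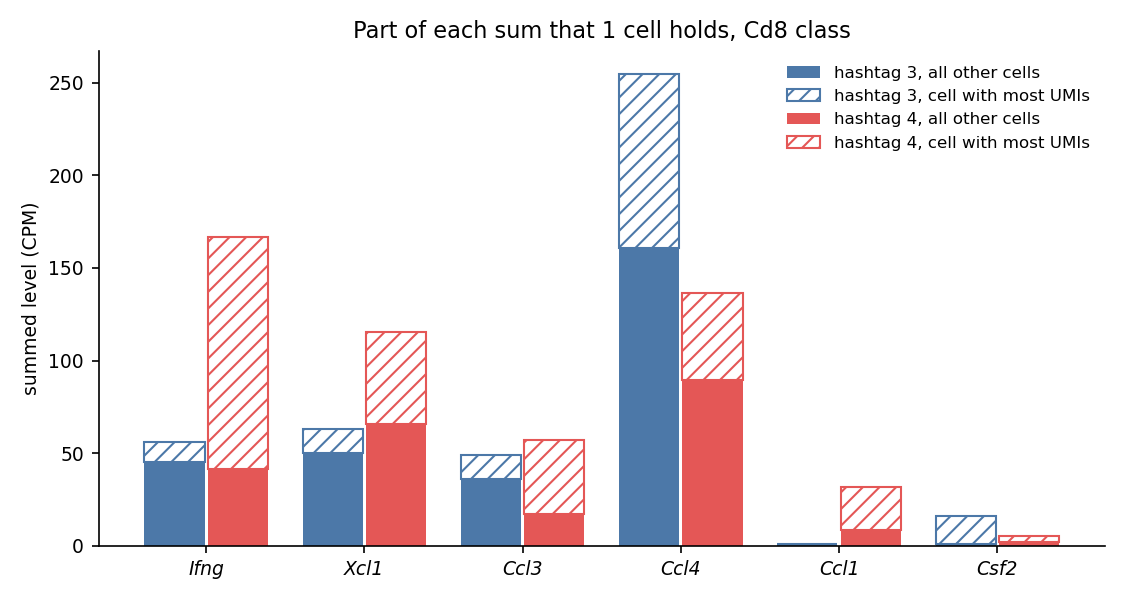
Summed level in CPM (vertical) of 6 cytokine and chemokine genes in Cd8 class cells of hashtag 3 (blue) and 4 (red); the hatched part of each bar is held by the cell with the most UMIs of that gene. For Ifng the hatched part of hashtag 4 is 365 of 485 UMIs, and the filled parts stand at 45.3 and 41.2 CPM.

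Ccl4, a chemokine made by activated CD8 cells, was the one chemokine of the list that was lower past the fold over all cells, at 84.0, 333, 255 and 136 CPM in hashtags 1 to 4. Its top cell in hashtag 3 held 431 of 1168 UMIs, and without the top cells its log2 ratio was -0.81 against -0.88 with them; it was found in 18.5 and 15.3% of cells. Csf2, which encodes GM-CSF, had 73 UMIs in hashtag 3, 68 of them in 1 cell, and 15 in hashtag 4; its log2 ratio went from -1.04 to 0.14 without the top cells. Areg, an epidermal growth factor family ligand, had 52 of its 53 hashtag 4 UMIs in 1 cell. Gzmc, a granzyme of strongly activated cells, had 89 UMIs in 10 hashtag 4 cells, 43 and 35 of them in 2 cells, against 11 UMIs in 11 hashtag 3 cells. Across the 325 genes that were higher past the fold, 33 had over 20% of their hashtag 4 UMIs in 1 cell, and of the 325 genes 292 still passed the fold without the top cells when no minimum was set again; of the 59 lower genes 58 did. Among the 6716 genes that still had 100 UMIs without the top cells, 264 were higher (3.93%) and 78 lower (1.16%). Ccl5, the most widely found chemokine of these cells, was at 8357 and 7399 CPM in 88.9 and 85.5% of cells, at a log2 ratio of -0.18 over all cells and 0.03 in T-marked cells.

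Genes of killing and of inhibition differed little. The background for their counts over all cells was 7.57% of genes higher and 1.31% lower. Of 14 measured granzyme, perforin and granule genes 2 were higher, Gzmc and Lamp1, with a median log2 ratio of -0.08; Lamp1, a lysosomal membrane protein of all cells, was at 0.92 over all cells and 0.23 in T-marked cells. Gzmb, the main killing protease, was at 390, 334, 410 and 340 CPM and in 33.3, 33.0, 38.4 and 30.9% of cells in hashtags 1 to 4. Hashtag 3 was highest in both. The intervals of the shares in hashtags 3 and 4 did not overlap over all UMIs and overlapped after thinning (27.3 and 22.5%), and the level ratio of 0.830 (0.768 to 0.897) did not reach the fold. Gzmk, a granzyme of memory-like effector cells, was at 205, 252, 260 and 196 CPM, a ratio of 0.752 (0.679 to 0.832) that did not reach it either, and its log2 ratio was -0.21 in T-marked cells. Prf1, the pore protein perforin, had a ratio of 0.925 (0.750 to 1.14). Of 17 measured genes of inhibitory receptors and exhaustion 2 were higher and 1 was lower, with a median of -0.03. Havcr2, which encodes TIM-3, was at 16.1, 26.0, 17 and 26.8 CPM, so hashtags 2 and 4 were the high ones, and its ratio was 1.58 (1.14 to 2.19), past the fold over all cells and not in T-marked cells. Tox2, a relative of the exhaustion factor Tox, was 2.47-fold lower (1.21 to 5.56) on 39 and 10 UMIs. Pdcd1 was found in 51.0% of hashtag 3 cells and 42.7% of hashtag 4 cells, and thinned in 32.6 and 29.7% with overlapping intervals; its level ratio was 0.920 (0.831 to 1.02). Lag3 had a ratio of 0.990 (0.834 to 1.17).

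Of 11 measured genes known from regulatory T cells 5 were higher over all cells, Foxp3, Il2ra, Tnfrsf4, Nrp1 and Areg, the last on 1 cell, and 4 were without the stricter myeloid cells. Of all genes with 20 UMIs, 7.57% were higher over all cells and 2% without the stricter myeloid cells. In T-marked cells 0 of 10 were past the fold, beside 3.48% of genes higher and 1.56% lower, so a count of 0 is near the background. The median was 0.02 there against 0.33 over all cells. T-marked cells were chosen by a Cd8a or Cd8b1 UMI, which leaves out cells without them. Foxp3, the factor that defines these cells, was found in 22 cells of hashtag 1 (5.69%), 27 of hashtag 2 (3.24%), 10 of hashtag 3 (1.15%, 0.554 to 2.11%) and 19 of hashtag 4 (3.2%, 1.94 to 4.96%). Of the 19, 11 had Cd8b1 and 3 had Cd4, and of the 10 in hashtag 3, 9 had Cd8b1 and 0 had Cd4. The intervals of the shares in hashtags 3 and 4 overlapped. Foxp3 was found in 0 of the 28 stricter myeloid cells of hashtag 3 and 6 of the 61 of hashtag 4. Without the stricter myeloid cells the shares were 1.19 and 2.44%, and in T-marked cells 1.08 and 2.17%. Tnfrsf4, which encodes OX40, had 127 UMIs in 49 hashtag 3 cells and 234 in 41 hashtag 4 cells, a log2 ratio of 1.39 that was 0.19 in T-marked cells.

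Trat1, Anxa1, Nt5e, Pgm2l1 and Unc5cl were past the fold both over all cells and in T-marked cells. T-marked cells still held 10 stricter myeloid cells in hashtag 3 and 22 in hashtag 4. The part of those cells in the values of these genes was not tested. Trat1, an adaptor that steadies the T cell receptor on the surface, was at 20.9, 19.9, 15.5 and 34.0 CPM in hashtags 1 to 4, highest in hashtag 4, and was found in 7.04 and 13.2% of cells of hashtags 3 and 4. Its ratio was 2.20 (1.6 to 3.02), its log2 ratio 1.02 in T-marked cells and -0.12 in the Cd4 class. Nt5e, which encodes CD73 and makes adenosine, was at 17.6, 19.9, 21.4 and 11.3 CPM and was 1.88-fold lower in hashtag 4 than in 3 (1.26 to 2.89), and 1.68-fold lower in T-marked cells. Pgm2l1, a sugar-bisphosphate synthase, was at 19.5, 21.9, 25.5 and 11.7 CPM and was 2.18-fold lower (1.48 to 3.30), and 1.93-fold in T-marked cells. Unc5cl, a death-domain protein, was 1.96-fold lower (1.39 to 2.81), and 1.75-fold in T-marked cells. For Nt5e and Pgm2l1 hashtag 4 was the lowest of the 4, and for Pgm2l1 its interval (8.09 to 16.3) overlapped only that of hashtag 1 (14.0 to 26.4). Anxa1, a phospholipid-binding regulator of inflammation, was higher, with a ratio of 2.49 (1.87 to 3.35) and a log2 ratio of 0.73 in T-marked cells. Rora, a nuclear receptor, did not pass over all cells, with a log2 ratio of 0.44, and was at 0.70, past the fold, in cells that were neither cycling nor carried myeloid or NK markers.

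**Figure D5:**
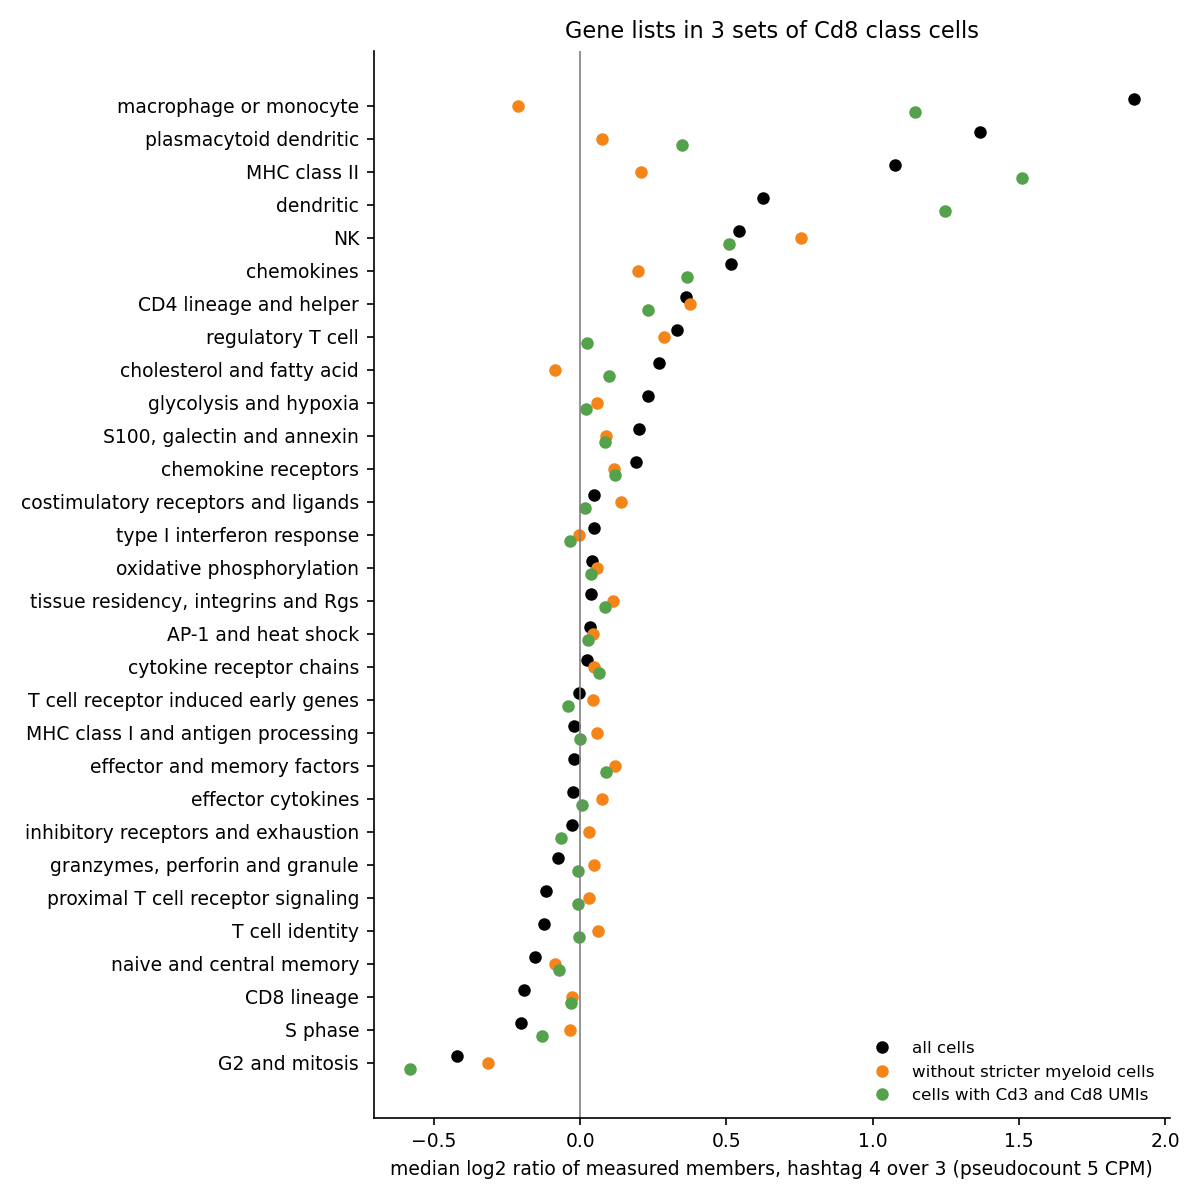
Median log2 ratio (horizontal) of hashtag 4 over 3 for the measured members of each list (vertical) in all Cd8 class cells (black), without stricter myeloid cells (orange) and in T-marked cells (green); lists with under 3 measured members in a set have no point there. The macrophage or monocyte list goes from 1.89 to -0.21 without the stricter myeloid cells, and the G2 and mitosis list is the lowest in all 3 sets.

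Several programs had no member past the fold in either direction over all cells. They were the 20 genes of proximal T cell receptor signalling (median -0.12, and -0.01 in T-marked cells), the 20 of oxidative phosphorylation (0.04), the 15 of MHC class I and antigen processing (-0.02) and the 9 of T cell identity (-0.12, and -0.00 in T-marked cells). Of 20 type I interferon response genes 3 were higher, Oasl1, Oasl2 and Slfn5, with a median of 0.05, and 0 of 20 in T-marked cells. Of 15 genes that T cell receptor signals switch on early, 3 were higher, Nr4a3, Tnfrsf9 and Tnfrsf4, with a median of -0.00. A single cell held over 20% of the Nr4a3 UMIs of hashtag 4. In T-marked cells 0 of these early genes were higher and Nr4a1 was lower. Of 18 genes of tissue residency Xcl1 alone was past the fold, and Itgae, which encodes CD103, and Cxcr6 had ratios of 0.773 (0.542 to 1.09) and 1.02 (0.942 to 1.11). Of 18 genes of glycolysis and hypoxia 4 were higher (Slc2a3, Hk2, Bnip3 and Vegfa). For the lists of this paragraph the background over all cells was 7.57% of genes higher and 1.31% lower. The glycolysis and hypoxia count without the stricter myeloid cells is not given here, so their part in that count is not stated. The median of this list without them is in the plot of list medians. Fabp5, a fatty acid carrier, went from a log2 ratio of 1.42 to -0.17 without the stricter myeloid cells.

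Surface antibody counts were sparse, 587 in all for hashtag 3 and 447 for hashtag 4 over the whole panel, so that few could be told apart. An integrin antibody, whose Greek letter is missing from its name in the file, had 35 and 10 counts, a ratio of shares of 0.375 (0.166 to 0.774). CD16/32, Fc receptors of myeloid and NK cells, had 5 and 14 counts, a ratio of 3.68 (1.25 to 13). CD11b, a myeloid integrin chain, had 1 and 8 counts (10.5, 1.41 to 466), Neuropilin-1, the protein of Nrp1, 1 and 10 (13.1, 1.87 to 569.9), and an antibody listed as Fc-RI, again with a missing letter, 1 and 11 (14.4, 2.10 to 622). CD8a had 25 and 16 counts (0.840, 0.419 to 1.64), and CD4 2 and 1. CD45.1 had 13 and 6 counts and CD45.2 had 3 and 9, with intervals of the ratio that took in 1 for both. The antibodies with an interval that leaves out 1 were these 5 of the 138 in the panel: the integrin, CD16/32, CD11b, Neuropilin-1 and Fc-RI. Among so many intervals, some can leave out 1 by counting error alone, and no allowance was made for this. CD11b, Neuropilin-1 and Fc-RI each rest on 1 count in hashtag 3. Whether any of the 5 differs beyond counting error was not tested.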

How the data were processed

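The authors deposited raw UMI counts for 14811 genes in 5564 cells, antibody counts (138 antibodies) and a cell annotation; the submitters' processing notes name Cell Ranger 3.1.0, Seurat 3.2.3 and mm10. The sources used here do not give how cells were filtered, doublets treated, hashtags assigned or classes called, and no cell was removed here as a doublet. Hashtag and receptor libraries were not analysed here. Counts were summed per hashtag number, and receptor and immunoglobulin genes were left out of CPM. Ratios carry exact conditional binomial intervals, levels exact Poisson and shares Clopper-Pearson intervals, all at 95%; a count of 0 allows 3 counts. With 1 library no test was run. Genes were named by rule: the 15 largest ratios in each direction among genes with 100 UMIs, 20 CPM and 5% of cells in the higher group, over all cells and over cells with no cycling, myeloid or NK markers, 2 at either end of every list, and a fixed set. C1qa, H2-Aa, H2-Eb1, Ube2c, Top2a, Ccl3, Ncr1, Il7r, the V genes and members listed with a count were named after their values were seen. Members and lists were chosen with earlier results of these data known. The ratio step was tested on simulated counts. TMM (edgeR 4.0.16) and size factors (DESeq2 1.42.0) served as alternative scalings. Some results on genes withheld from this text are not reported here.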

Additional observations from a re-analysis of the deposited data

How the results depend on the processing

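Each group is 1 set of cells from 1 library, so no spread between mice or cultures was measured. No paired analysis was possible because the hashtag samples carry no replicates. Against 325 genes higher and 59 lower, TMM scaling gave 104 lower and median-of-ratios scaling 103. Thinned cells gave 89 higher and 36 lower, and cells without cycling genes 39 lower. Leaving out cells with myeloid markers by the looser rule gave 55 and 36, and leaving out cycling and NK-marked cells as well 55 and 31. T-marked cells gave 100 higher, cells with a Pdcd1 UMI 101 higher and 107 lower, cells outside the stricter myeloid rule 61 higher, and cells of other Trbv genes 99 higher. A minimum of 20 UMIs gave 765 and 132, no minimum 984 and 156, and a fold of 2 gave 164 and 5. The sets outside the stricter myeloid rule, without top cells and of other Trbv genes were chosen after seeing the data. The ratio of Trbv12-1 shares, 1.98, stayed between 1.86 and 2.05 in every alternative run.

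Some shares and genes moved further. The share of cells with myeloid markers by the looser rule was 0.811 times that of hashtag 3, 1.42 when thinned, 1.35 with 1 gene more, 0.680 in T-marked cells and 0.570 outside the stricter rule. The Cd8a share ratio of 0.823 was 0.885 thinned and 0.920 in T-marked cells, and that of Cd8b1 was 0.946 without myeloid-marked and NK-marked cells and 1.001 in T-marked cells. The log2 ratio of Hist1h2ae became 0.10 without cycling cells, that of Lamp1 -0.019 without the looser myeloid cells, that of Ifng -0.12 without the top cells, that of Csf2 0.76 without the deepest 1% of cells, and that of Tnfrsf9 -0.042 in T-marked cells. Ccr7 stood at -0.34 without the looser myeloid cells, -0.44 without cycling and NK-marked cells as well, -0.54 outside the stricter rule and -0.012 in cells of other Trbv genes. Without cycling, looser myeloid and NK-marked cells Fabp5 stood at -0.11 and Irf8 at -0.13, and outside the stricter rule Fabp5 stood at -0.17. Beyond what the sets themselves leave out, the cause was not tested. Over all named genes and alternatives, 1461 ratios lay within the interval over all cells, 396 lay outside it, and 12 of genes past the fold changed sign.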
